A study of Mus musculus with 2 samples.

Results

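The miR-23, miR-27 and miR-24 miRNAs come from 2 clusters of the mouse genome, and both were read in embryonic kidney by small RNA sequencing. The genes were chosen by symbol, as the rows of both count tables whose Ensembl identifier carries the name Mir23a, Mir27a or Mir24-2 on chromosome 8, or Mir23b, Mir27b or Mir3074-1 on chromosome 13, in GENCODE release M21. They are 6 of the 1894 genes in each table whose identifier has a symbol there, beside 79 rows with none. Mir24-1 has no row of its own. Its strand is the one opposite to Mir3074-1, so the opposite-strand counts of Mir3074-1 stand for it here. The clusters are compared as Mir23a, Mir27a and Mir24-2 over Mir23b, Mir27b and Mir24-1.

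There was 1 group, kidney of B6NCrl mouse embryos at 14.5 days of gestation, when the ureteric bud branches and nephrons and their vessels form. It held 2 biological replicates of 2 kidneys each, with different collection dates. The labels give the sex as pooled, name a single pup per sample and share 1 donor identifier, so the number of embryos behind a sample is not settled. SDs below measure the spread between these 2 samples alone, part of which may be technical. The p-values of the replicate comparison below set the difference between these 2 libraries against counting error only, and do not measure that spread. In a bulk tissue, a change in the number of cells of a type and a change in RNA per cell cannot be told apart. Libraries covered RNA of less than 30 nucleotides, so a read spans a miRNA from end to end. Levels are in CPM, where 1000000 is the sum of all own-strand counts of miRNA genes in a library, and are not divided by length unless said. The opposite-strand counts of Mir24-1 were divided by the same sum. Ranks are by mean CPM among all rows.

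The clusters are copies of one another that arose by duplication, and each is transcribed as one primary RNA from which the hairpins are cut. A miRNA pairs with its targets mainly through the seed, bases 2 to 8 from its 5′ end, so copies with one seed share most targets. In endothelial cells, miR-23 and miR-27 are known to favour sprouting of vessels by repressing Spry2 and Sema6a, inhibitors of angiogenic signalling, and miR-24 is known to repress Gata2 and Pak4. Outside vessels, miR-27 is known for repressing Pparg, the regulator of fat cell formation.

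The mature sequences are shown because they decide which copy a read can be given to. They are from RefSeq on GRCm38.p6, written 5′ to 3′ with the seed in capitals. All 8 hairpins of the loci, the antisense Mir3074-1 and Mir3074-2 included, matched by symbol. For Mir23b the hairpin is given further on.
miR-23a-3p (chromosome 8): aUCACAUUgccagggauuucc
miR-27a-3p (chromosome 8): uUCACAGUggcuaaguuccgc
miR-27b-3p (chromosome 13): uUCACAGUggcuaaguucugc
miR-24-3p (both chromosomes): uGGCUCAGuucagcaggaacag
miR-24-2-5p (chromosome 8): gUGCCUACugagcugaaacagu
miR-24-1-5p (chromosome 13): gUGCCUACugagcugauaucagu
miR-3074-5p (opposite strand, both chromosomes): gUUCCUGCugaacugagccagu
The 3p arms of miR-27a and miR-27b have the same seed and differ by 1 base, C19U, counted from the 5′ end with the base of miR-27a first. The seed of miR-23 differs from that of miR-27 by 1 base, U7G, with the base of miR-23a first. The miR-24-3p sequence was found in 2 annotated hairpins, Mir24-1 and Mir24-2, and that of miR-3074-5p in Mir3074-1 and Mir3074-2. Each of the other 5 sequences was found in 1 hairpin. The 5p arms of miR-24 have the same seed and are identical over their first 16 bases.

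The hairpins show how much of each copy is shared. Capitals mark the longest stretch that the paralogues have in common.
Mir23a, chr8:84208518-84208592, plus strand: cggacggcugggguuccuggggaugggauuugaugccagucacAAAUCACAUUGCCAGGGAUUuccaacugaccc
Mir23b, chr13:63300484-63300557, plus strand: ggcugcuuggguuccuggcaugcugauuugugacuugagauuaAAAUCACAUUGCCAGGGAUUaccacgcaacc
Mir27a, chr8:84208672-84208758, plus strand: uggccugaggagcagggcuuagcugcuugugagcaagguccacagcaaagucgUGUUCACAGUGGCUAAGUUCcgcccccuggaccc
Mir27b, chr13:63300712-63300784, plus strand: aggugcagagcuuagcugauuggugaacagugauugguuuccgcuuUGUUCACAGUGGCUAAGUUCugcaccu
Mir24-2, chr8:84208815-84208921, plus strand: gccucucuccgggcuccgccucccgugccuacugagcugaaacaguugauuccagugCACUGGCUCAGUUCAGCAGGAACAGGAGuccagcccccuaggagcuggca
Mir24-1, chr13:63301208-63301275, plus strand: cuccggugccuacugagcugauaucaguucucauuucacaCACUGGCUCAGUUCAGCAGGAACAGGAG
The shared stretch was 20 bases in the miR-23 pair and 20 in the miR-27 pair, and in both it ends inside the 3p arm. Over the 21 bases of miR-23a-3p, the Mir23b hairpin differs by 1 base, U19A, with the base of miR-23a first. A miR-23 or miR-27 read that reaches base 19 of the 3p arm therefore matches 1 hairpin of its pair. Reads of that arm that end before base 19 match both, and how many such reads there were was not tested. In the miR-24 pair the shared stretch was 28 bases and holds the whole of miR-24-3p, so a read of that mature arm matches both loci. Multimapping reads made up 28.3% of replicate 1 and 27.5% of replicate 2, and the tables tally them apart from the genes. Counts of Mir24-2 and Mir24-1 therefore leave out reads of the shared arm, and how many of the 2960222 and 1862424 multimapping reads were miR-24-3p was not tested.

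The loci differ in layout as well as in sequence. On chromosome 8, Mir23a (ENSMUSG00000065611.1), Mir27a (ENSMUSG00000065444.1) and Mir24-2 (ENSMUSG00000065541.1) span 404 bases of mm10, with 79 and 56 bases between hairpins. No host gene on their strand holds them in release M21, and the last 2 bases of Mir24-2 overlap the lincRNA Gm26532. On chromosome 13, Mir23b (ENSMUSG00000065599.1), Mir27b (ENSMUSG00000065475.1) and Mir24-1 span 792 bases, with 154 and 423 bases between hairpins. They lie inside 2010111I01Rik, which encodes aminopeptidase O. Mir23b is intronic in it, and Mir27b and Mir24-1 overlap exons of some of its transcripts. Mir3074-1 (ENSMUSG00000092741.1; 63301199 to 63301283, minus strand) is antisense to Mir24-1 and lies in an intron of Fancc, a Fanconi anaemia gene. Hairpins on chromosome 8 had the higher GC content in every pair, 56.0% in Mir23a against 48.6% in Mir23b, 59.8% in Mir27a against 47.9% in Mir27b, and 61.7% in Mir24-2 against 51.5% in Mir24-1.

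**Figure D1:**
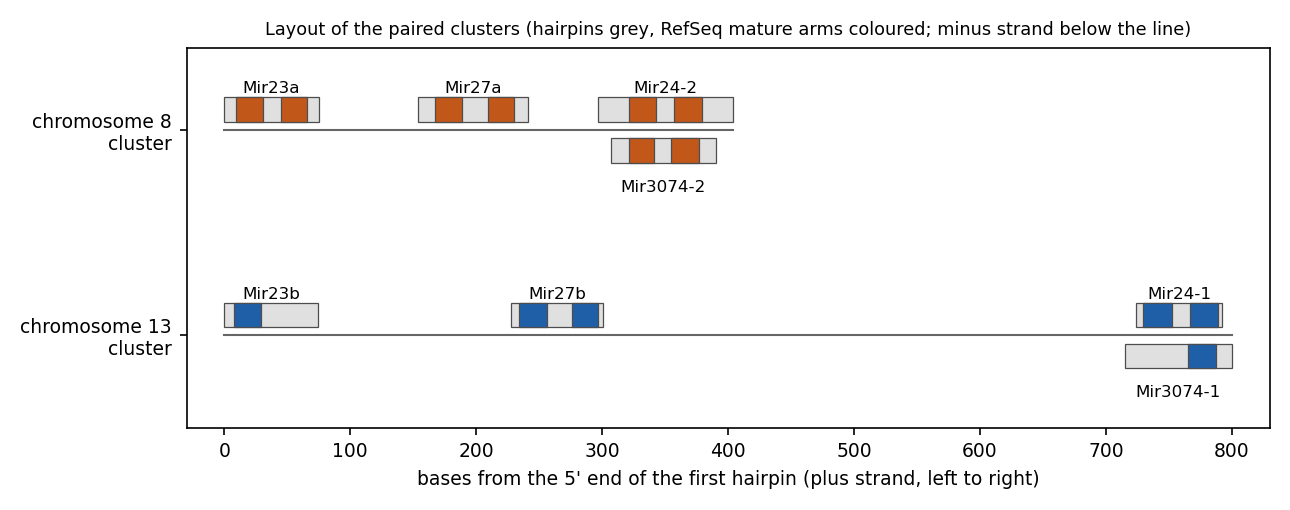
Layout of the clusters to scale, in bases from the 5′ end of the first hairpin of each, with hairpins in grey, the RefSeq mature arms used here coloured, and minus-strand hairpins under the line. The chromosome 8 cluster spans 404 bases and the chromosome 13 cluster 792 bases, and Mir24-1 stands 423 bases after Mir27b.

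Own-strand counts of miRNA genes summed to 5202588 in replicate 1 and 3683978 in replicate 2, so that 3 counts correspond to 0.577 and 0.814 CPM. Of the markers of the labelled tissue, Mir10a, Mir10b and Mir196b of the posterior trunk were among the 10 most abundant genes, and the kidney miRNAs Mir192, Mir204 and Mir194-2 lay between ranks 150 and 179. These 6 held 24.4% of counts, nearly all of it from the posterior trunk genes. Mir10a, Mir10b and Mir196b had means of 144007, 71380 and 28115 CPM, against 174, 146 and 100 CPM for Mir192, Mir204 and Mir194-2. Mir126a of endothelium held 4.65%, 5 epithelial miRNAs 2.51% and 6 of stroma and smooth muscle 2.53%. The leukocyte Mir155, Mir223 and Mir150 with Mir142b held 0.0616%. Mir142b, at 0 on its own strand, is antisense to Mir142, the main leukocyte miRNA, which read from the opposite strand had 324 and 312 CPM. Mir206 of striated muscle was at 72.3 and 53.5 CPM. Mir1a-1, Mir133a-1 and the neuronal Mir124a-1, Mir124a-2 and Mir124a-3 were at 0 and Mir9-2 had 1 count in all, but these miRNAs come from several loci each, so their reads can be multimapping and these counts say nothing about muscle or neurons. A mature sequence of Mir194-2 is also in Mir194-1, and one is common to the stromal Mir199a-1, Mir199a-2 and Mir199b. The counts and shares given for these genes can therefore leave out shared reads too. Among these markers the libraries stood furthest apart in the hepatocyte Mir122, with 56.3 CPM in replicate 1 but 1074 CPM in replicate 2. The 3 erythroid miRNAs together held 0.0161% and 0.00776% of counts. Kidney miRNAs differed too, with Mir192 at 125 and 224 CPM and Mir194-2 at 71.1 and 129 CPM. Mir204 was lower in replicate 2, at 157 and 136 CPM.

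All 6 genes were detected, that is, had at least 10 counts in each replicate, beside 17.5% of all rows. The 3 hairpins of each cluster, Mir24-1 among them, together came to 3.65% of the own-strand sum in replicate 1, with a 95% Clopper-Pearson interval of 3.63 to 3.67, while replicate 2 gave 3.29% (3.27 to 3.31). Their mean was 3.47% ± 0.254 (SD, n = 2). The miR-23 pair held 3.19% ± 0.299, the miR-27 pair 0.265% ± 0.0460 and the miR-24 pair 0.0190% ± 0.00144 of counts. Intervals cover counting error only, and without molecular identifiers PCR reads are not independent molecules. How evenly different miRNA sequences were captured in the libraries was not tested, so differences between families are differences in counts.

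Among reads assigned to a gene, which leave out the shared miR-24-3p arm, miR-23 was the leading family at both loci. Mir23a had 44994 counts in replicate 1 and 30151 in replicate 2, which is 8648 and 8184 CPM, a mean of 8416 ± 328 CPM and rank 22. Mir23b had 131780 and 79455 counts, 25330 and 21568 CPM, a mean of 23449 ± 2660 CPM and rank 13. The copy on chromosome 13 was higher in both libraries, and the levels did not overlap. In mean CPM, Mir23a stood between Mirlet7d and Mir106b, and Mir23b between Mir130a and Mir30e.

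By counts, miR-27 was lower than miR-23 at each locus. Mir27a had 1043 and 911 counts, 200.5 and 247 CPM, a mean of 224 ± 33.1 CPM and rank 140. Mir27b had 11045 and 10046 counts, 2123 and 2727 CPM, a mean of 2425 ± 427 CPM and rank 57. Again the chromosome 13 copy was the higher one in both libraries, with no overlap of levels. The genes next to Mir27a in mean CPM were Mir450b and Mir341, and those next to Mir27b were Mir183 and Mir425.

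The miR-24 loci, for which reads of the shared 3p arm are left out, had the lowest counts of the plus-strand hairpins. Mir24-2 had 609 and 409 counts, 117 and 111 CPM, a mean of 114 ± 4.27 CPM, and stood between Mir3102 and Mir362 at rank 173. Mir24-1, read opposite to Mir3074-1, had 433 and 254 counts, 83.2 and 68.9 CPM, a mean of 76.1 ± 10.1 CPM. Here the chromosome 8 copy was the higher one in both libraries. Mir3074-1 on its own strand had 363 and 222 counts, 69.8 and 60.3 CPM, a mean of 65.0 ± 6.73 CPM and rank 201, between Mir376c and Mir33.

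The order of levels, as counted, was Mir23b, Mir23a, Mir27b, Mir27a, Mir24-2, Mir24-1 and Mir3074-1. Neighbours in this order did not overlap between replicates, except that the range of Mir24-1 overlapped that of Mir3074-1.

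**Figure D2:**
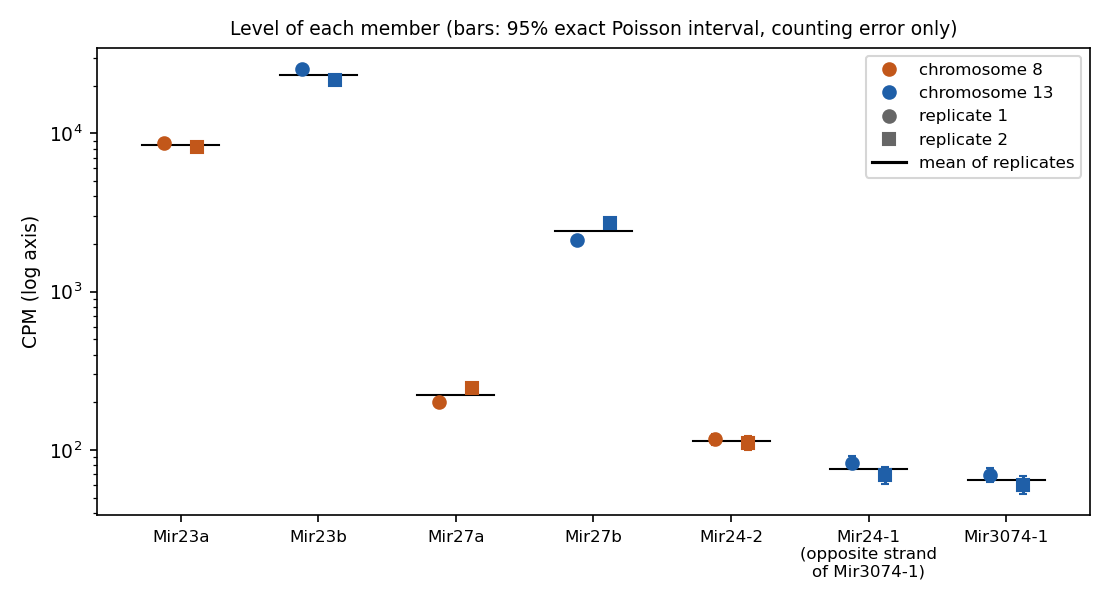
CPM of each hairpin on a log axis, with circles for replicate 1, squares for replicate 2, black lines for the mean of the 2, bars for 95% exact Poisson intervals, orange for chromosome 8 and blue for chromosome 13. Mir23b and Mir27b lie above Mir23a and Mir27a in both replicates, while Mir24-2 lies above Mir24-1.

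Without the reads of miR-24-3p, which cannot be given to a cluster, the chromosome 8 cluster gave fewer counts than the chromosome 13 cluster. Its 3 hairpins summed to 46646 counts in replicate 1 and 31471 in replicate 2, against 143258 and 89755 for the chromosome 13 cluster. As a share of all counts on the strand of miRNA genes, this was 0.875% ± 0.0299 for the chromosome 8 cluster and 2.59% ± 0.224 for the chromosome 13 cluster (SD, n = 2). The log2 ratio of summed counts, chromosome 8 over chromosome 13, was -1.62 in replicate 1 (95% exact interval -1.63 to -1.60), and replicate 2 gave -1.51 (-1.53 to -1.49). The mean was -1.57 ± 0.08, or 2.96-fold lower on chromosome 8. This difference was larger than the spread between the replicates. No p-value is given, because an exact two-sided sign-flip test with 2 replicates cannot go below 0.5.

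The families did not share that ratio. The log2 ratio of counts of Mir23a over Mir23b was -1.55 in replicate 1 and -1.40 in replicate 2, a mean of -1.47 ± 0.11, or 2.78-fold lower on chromosome 8. For Mir27a over Mir27b it was -3.40 and -3.46, a mean of -3.43 ± 0.04, or 10.8-fold lower. Mir27a was thus further below its paralogue than Mir23a was in each library, by more than the spread between replicates. For Mir24-2 over Mir24-1, counted without the shared 3p arm, it was 0.49 (95% exact interval 0.31 to 0.67) and 0.69 (0.46 to 0.92). In these remaining counts the mean of 0.59 ± 0.14 had the opposite direction. That value depends on reading Mir24-1 from 1 strand, since with both strands of each row summed the mean ratio was -0.30. Divided by the length of the annotated hairpin, which for Mir24-1 is that of the Mir3074-1 row, the mean log2 ratios of counts per base were -1.49, -3.69 and 0.26.

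The chromosome 8 share of each pair says the same on a linear scale. Of miR-23 counts, 25.5% in replicate 1 and 27.5% in replicate 2 lay on chromosome 8. Of miR-27 counts, 8.63% and 8.31% did. For miR-24 the shares were 58.4% (55.4 to 61.5) and 61.7% (57.9 to 65.4), of 1042 and 663 counts.

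For scale, 12 paralogue pairs of other families were listed, and all 12 had both genes detected. The size of their mean log2 ratio ran from 0.13 for Mir200b and Mir200c to 7.73 for Mir18 and Mir18b, with a median of 1.42. The miR-23 ratio was exceeded in size by 6 of the 12. The miR-27 ratio was exceeded by 3, Mir18 with Mir18b, Mir20a with Mir20b and Mir106b with Mir106a. The other 9 were smaller in size than the miR-27 ratio, at most 3.37 for Mir301 with Mir301b. Mir20b, Mir18b and Mir106a follow one another in the order of detected genes, as the members of a cluster do here. These 3 pairs may therefore not be separate cases, and the distances between these genes were not tested. This is a description with no test, and it does not decide whether the clusters stand apart.

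**Figure D3:**
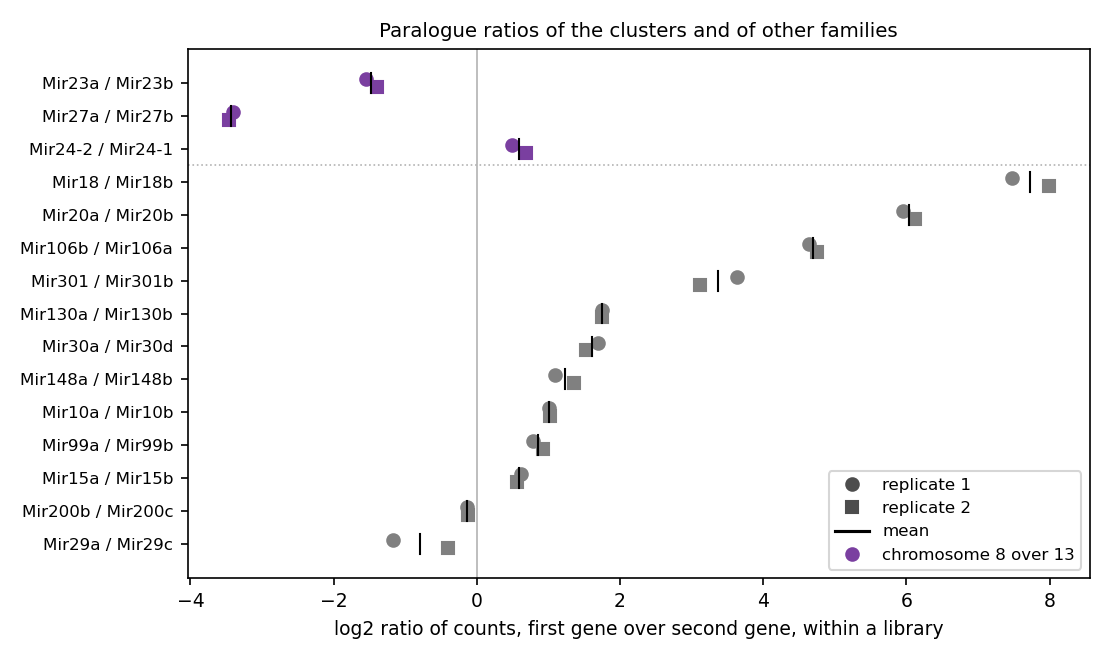
Log2 ratio of counts of the first gene over the second within each library, for the 3 pairs of the clusters (purple, chromosome 8 over chromosome 13) and 12 pairs of other families (grey), with circles for replicate 1, squares for replicate 2 and black lines for the mean. The miR-23 and miR-27 pairs lie left of 0, at means of -1.47 and -3.43, and the miR-24 pair right of it at 0.59. Counts of the miR-24 pair leave out the shared 3p arm.

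Within a cluster, hairpins cut from one primary RNA gave very unequal counts. On chromosome 8, Mir23a held 96.1% ± 0.462 of the counts of its cluster, Mir27a 2.57% ± 0.466 and Mir24-2 1.30% ± 0.00422. On chromosome 13, Mir23b held 90.3% ± 2.45, Mir27b 9.45% ± 2.46 and Mir24-1 0.293% ± 0.0136. These shares leave out multimapping reads of miR-24-3p, and the rank of miR-24 with them was not tested. Among the counted reads the miR-23 hairpin led in both, and the hairpin in the middle held a larger share on chromosome 13 in each library, with 2.24% and 2.89% for Mir27a against 7.71% and 11.2% for Mir27b.

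The log2 ratio of counts of Mir27a over Mir23a was -5.43 in replicate 1 and -5.05 in replicate 2, a mean of -5.24 ± 0.27. That of Mir27b over Mir23b was -3.58 and -2.98, a mean of -3.28 ± 0.42. Both ratios were higher in replicate 2, by 0.38 and 0.59. The log2 ratio of Mir24-2 over Mir23a was -6.21 and -6.20, and that of Mir24-1 over Mir23b -8.25 and -8.29. The miR-24 to miR-23 ratio thus moved by 0.0032 and -0.04 between replicates, within the exact interval of either library.

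Mir3074-1 was the one member with more counts on the opposite strand than on its own. Of its counts on both strands, 54.4% (50.9 to 57.9) lay on the opposite strand in replicate 1, and replicate 2 gave 53.4% (48.8 to 57.9). The mean was 53.9% ± 0.732. Over all rows that share was 1.86% ± 0.0957. Among 355 rows with at least 10 counts on both strands together in each replicate, 11 (3.10%) had a share of at least 50% in both replicates, and 313 (88.2%) had no count on the opposite strand.

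The remaining members gave next to nothing there. Mir24-2, whose opposite strand is that of Mir3074-2, had 3 counts in replicate 1 and 0 in replicate 2, beside 609 and 409 on its own strand. The minus strand thus gave 0.490% of counts at the chromosome 8 locus of miR-24 in replicate 1, and the 0 counts of replicate 2 allow up to 0.733%. At the chromosome 13 locus the minus strand, that of Mir3074-1, gave 45.6% and 46.6%. Since miR-3074-5p is present at both loci, reads of that arm are in neither count. Mir23a had 0 opposite-strand counts beside 44994 and 30151, which allows up to 0.00667% and 0.00995%. Mir23b, Mir27a and Mir27b also had 0 in both libraries. Mir24-1 and Mir27b overlap exons of 2010111I01Rik, Mir23b lies in an intron of it, and Mir3074-1 lies in an intron of Fancc. Fragments of these longer RNAs cannot be told apart from miRNA reads in the counts of any of these genes.

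For each of the 345 detected genes, replicate 2 was set against replicate 1 in an exact two-sided binomial test with Benjamini-Hochberg adjustment. The test knows counting error only, and it compares libraries, not conditions. With a log2 ratio of 1 or more in size required beside an adjusted p below 0.05, 0 of the 6 genes passed, beside 3.19% of detected genes. At an adjusted p below 0.05 alone 4 of 6 passed, as at an unadjusted one, beside 53.6% of detected genes, 2 of them higher (26.7% of detected genes) and 2 lower (27%) in replicate 2. Shares of this size for 6 genes are near the background. The median log2 ratio of the 6 genes was -0.07, and that of all detected genes 0.02.

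The genes that passed split by family and not by chromosome. Mir27a and Mir27b were higher in replicate 2, at log2 ratios of 0.31 (95% exact interval 0.18 to 0.44) and 0.37 (0.33 to 0.41), with adjusted p of 9.08e-06 and 2.94e-74 in the exact binomial test. Mir23a and Mir23b were lower, at -0.07 (-0.09 to -0.05) and -0.23 (-0.24 to -0.21), with adjusted p of 3.22e-11 and 1.63e-268. Mir24-2 at -0.07 (-0.25 to 0.11) and Mir3074-1 at -0.21 (-0.45 to 0.04) did not pass, with adjusted p of 0.587 and 0.164 in the exact binomial test. Mir24-1 stood at -0.27 (-0.49 to -0.04), outside the adjusted family. When edgeR's exact test was given a coefficient of variation of 0.2, 0 of the 6 genes passed and 2 of all 345 did, so the split is described for these 2 libraries only. The erythroid Mir451a at -1.22 and the hepatocyte Mir122 at 4.26 differed more between the same libraries. So did the kidney Mir192 at 0.85 and Mir194-2 at 0.87, but not Mir204 at -0.20. The part of these miRNAs in the members' ratios was not tested.

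**Figure D4:**
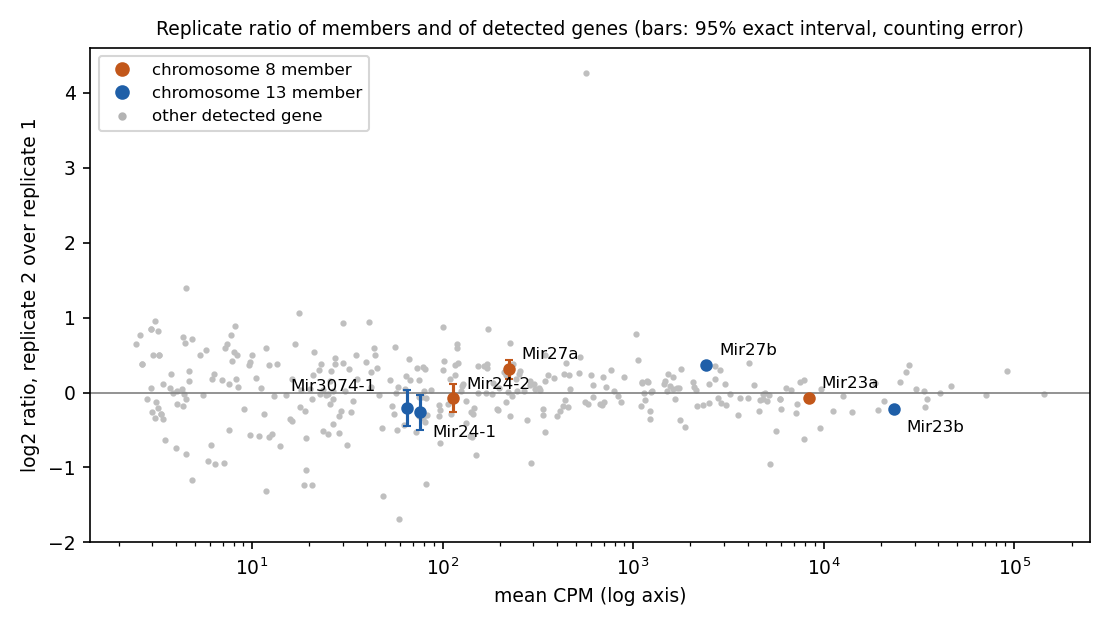
Log2 ratio of replicate 2 over replicate 1 against mean CPM (log axis) for the hairpins of the clusters, with 95% exact intervals, and for the other detected genes in grey. Mir27a and Mir27b lie above 0, at 0.31 and 0.37, and Mir23a and Mir23b below it, at -0.07 and -0.23, all within the range of the other detected genes.

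Other miRNAs known from vessels were set beside the clusters. Of 13 listed, 12 had a row (not Mir126b), and all 12 were detected, together 11.0% ± 0.262 of counts. Bulk counts do not say which cells these reads came from, so this sum is not a share from vessels. Mir126a, Mir143 and Mir145a are also among the endothelial and stromal markers above. Mir18a and Mir92a-1 are in the annotation as Mir18 and Mir92-1. A mature sequence of Mir92-1 is also in Mir92-2, and Mir218-1 and Mir218-2 have one in common, so counts of these genes can leave out shared reads. Mir126a of endothelial cells led them at 45180 and 47759 CPM, followed by Mir17 at 33338 and 33700 CPM, Mir143 of vascular smooth muscle at 17889 and 19401 CPM and Mir18 at 4912 and 4889 CPM. By mean CPM, Mir23b thus stood between Mir17 and Mir143, and Mir23a between Mir143 and Mir18. Between the replicates, 7 of the 12 passed as higher in replicate 2 and 2 as lower in the exact binomial test at an adjusted p below 0.05, beside 26.7% and 27% of detected genes, and with a median log2 ratio of 0.09. In that test 0 of them passed with a log2 ratio of 1 or more in size.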

How the data were processed

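The deposited file descriptions name mm10 as the assembly and GENCODE M4 as the annotation behind the counts. Which aligner and counter were run is not given in the sources used here. The authors deposited raw read counts per miRNA gene for each of 2 replicates of 1 group, for both strands, the strand of the gene and the opposite strand. The last pair added up to the first in every gene row. The 4 tally rows were left out of totals. Symbols and positions come from the later GENCODE M21, also on mm10, where 1894 identifiers matched without version and 79 did not. 3 listed miRNAs stand there under another symbol (Mir18, Mir92-1, Mir301) and were found through RefSeq synonyms. Hairpins of Mir23b, Mir27b and Mir3074-1 have a later version there, so the counted intervals may differ. Sequences are from RefSeq, GRCm38.p6.

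Log2 ratios within a library used counts without a pseudocount, with exact Clopper-Pearson intervals. The replicate comparison was a two-sided exact binomial test on TMM-scaled totals over all genes with 10 or more counts in each replicate, Benjamini-Hochberg adjusted. It was tried on simulated counts with counting error only. That is the error the test assumes, so the simulation cannot show that it suits these replicates. edgeR's quasi-likelihood test had no contrast to fit. A chi-square test over genes found the replicates further apart than sampling noise (46611 on 344 degrees of freedom). Named genes are the members, their nearest neighbours in mean CPM, and up to 4 leading genes per list. Members and lists were chosen with earlier results of these data known. Python 3.11.15 was used with scipy 1.17.1, numpy 2.4.6, pandas 2.3.3 and matplotlib 3.10.9, and R 4.3.3 with DESeq2 1.42.0 and edgeR 4.0.16.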

Additional observations from a re-analysis of the deposited data

How the results depend on the processing

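Alternatives were the unstranded counts, each replicate alone, other denominators, normalizations, pseudocounts and count minimums, an edgeR exact test, and, added after the data were examined, division by hairpin length and the edgeR test with no minimum of the ratio. Of 102 values under settings other than leaving out 1 replicate, 78 moved by less than the spread between replicates or kept their call. With 2 replicates, a value without 1 of them lies within the SD by construction and shows no stability. The lower total of the chromosome 8 cluster and the lower Mir23a and Mir27a kept their direction under every alternative run for them. Without 1 replicate the log2 ratio of cluster totals ranged from -1.62 to -1.51, and without the miR-24 members it was -1.58.

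With unstranded counts the log2 ratio of Mir24-2 over Mir24-1 changed sign to -0.30, because the row then also holds the reads of Mir3074-1; the level of that row was 138 CPM, the ratio of Mir24-1 over Mir23b -7.38, over Mir27b -4.10, and that of Mir24-2 over Mir23a -6.20. Per base of hairpin, Mir27a over Mir27b was -3.69 and Mir24-2 over Mir24-1 was 0.26. With a pseudocount of 10 CPM, Mir27a over Mir27b was -3.38. Per 1000000 of all reads, which adds the tallies to the denominator, Mir23a stood at 4381, Mir27a at 117, Mir24-2 at 59.4, Mir23b at 12177, Mir27b at 1271, Mir24-1 at 39.5 and Mir3074-1 at 33.8. In edgeR's exact test with an assumed coefficient of variation of 0.2, 0 of the 6 genes passed in place of 4 (Mir23a, Mir27a, Mir23b and Mir27b lost their call), and 2 of all genes in place of 185 at an adjusted p below 0.05 alone and of 11 with a log2 ratio of at least 1; with a minimum of 100 counts the last count was 4, as fewer genes were tested. No paired analysis was possible because there is 1 group. Depth limits Mir24-2, Mir24-1 and Mir3074-1, which rest on 222 to 609 counts, and the miR-24 values also lack the reads of the shared arm.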
